A study of Gallus gallus with 15 samples.

Results

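The calpain system of breast muscle was described with 9 genes, chosen by name because they encode calpain proteases, a calpain regulatory subunit or the calpain inhibitor. CAPN1, CAPN2, CAPN3, CAPN5, CAPN7, CAPN11 and CAPN15 encode large catalytic subunits, CAPNS2 encodes a small regulatory subunit, and CAST encodes calpastatin. All 9 were found among the 17475 genes of the deposited table, and all 9 passed the filter for low expression, a mean deposited FPKM (counted fragments per exonic length and library total) of at least 0.2.

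Breast muscle RNA was sequenced from 15 female Korat chickens (KRC), a slow-growing Thai cross, at 10 weeks of age. The 5 birds of group B had been fed 1% β-alanine, the 5 birds of group C 0.5% L-histidine, and the 5 control birds of group A the basal diet without supplement, with the experimental diets given from 4 weeks of age. Muscle makes the dipeptide carnosine from these amino acids. Each library came from 1 bird, and the birds of a group came from separate cages.

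Most calpains become active when calcium enters the cell, and they cut other proteins through a cysteine in the active site. The classical μ- and m-calpains are heterodimers of a large catalytic subunit and a small regulatory subunit with a penta-EF-hand domain, and calpastatin is their specific inhibitor. Calpains cleave proteins of the sarcomere and the cytoskeleton at limited sites, and their action after slaughter is known to soften meat. The question put to the data was which of these genes differed in muscle of supplemented birds. RNA levels say nothing of calpain activity, which also depends on calcium, on autolysis and on the inhibitor.

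The total count lay between 10620229 and 15381547 fragments per bird. Counts were scaled by relative log expression (RLE), and levels are given as normalized FPKM, with the count set against exonic length and scaled library size. Control bird A4 had the lowest RLE factor (0.678), and control bird A3 the next (0.856), against 0.933 to 1.189 in the other birds. In the paper's read statistics, A3 and A4 also had the lowest mapping rates and the highest GC contents of all birds. The part of library quality in their levels was not tested. Bird A4 also had the highest summed level of 6 skeletal muscle markers (130800 normalized FPKM, against 53200 to 102000 in the other 14 birds). All normalized levels of a bird share its factor, but A3 and A4 were not highest throughout. A4 had the highest CAPN1 and CAPN11 levels of all birds and the lowest CAPN2 level (0.652 normalized FPKM). A3 had the highest CAPN15 level (3.81) and the lowest CAPN7 level (1.38). Bird C2 stood apart in another way, since 5 slow fibre markers (MYH7B, MYL2, MYL3, TNNI1 and TNNT1) summed to 5997 normalized FPKM there, against at most 81.4 in any other bird. TNNC1 was left out of that sum after its high level in every bird had been seen. Of 7 skin epithelium genes, KRT5 and DSP were at most 0.0841 and 0.0413 normalized FPKM in any bird, KRT15 reached 1.31 in a bird of group B, and TP63 carried most of their sum at 0.691 to 4.79. In whole tissue, fewer cells of a type and less RNA per cell cannot be told apart.

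No calpain system gene passed the test in any comparison, but CAPNS2 was higher in every supplemented bird than in every control bird, and CAPN1 was lower in both supplemented groups on average. A gene was called at an adjusted p under 0.05 with a fold change of at least 1.5. By the quasi-likelihood test of edgeR, adjusted over the 11858 genes tested after Benjamini and Hochberg, 0 of the 9 genes were called in group B against A, in group C against A or in group C against B. The share called among all tested genes was also 0.0% in each of the 3 comparisons. DESeq2 called 0.365% of 15897 genes in group B against A, 1.42% in group C against A and 0.0% in group C against B, and none of the 9 in any of them. CAPNS2 had no adjusted p from DESeq2 in group C against A, so it could not be called there.

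At an unadjusted edgeR p under 0.05, 2 members differed in group B against A, 3 in group C against A and 2 in group C against B, beside 1262, 2273 and 477 of all tested genes. CAPNS2 was higher and CAPN1 lower in group B than in group A. Of all genes tested in that comparison, 4.47% were higher and 6.17% lower at this limit. In group C against A, CAPNS2 was higher and CAPN1 and CAPN11 lower at this limit, where 7.99% of all genes were higher and 11.2% lower. In group C against B, CAPN2 and CAST were higher and 0 members lower, beside 2.51% and 1.51% of all genes. The 5 control birds are shared by both comparisons against group A, so any deviation of theirs enters both.

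Markers of skeletal muscle and of some other cell types also differed between groups at an unadjusted edgeR p under 0.05. At this limit, 4.47% of all tested genes were higher and 6.17% lower in group B against A. The shares were 7.99% and 11.2% in group C against A, and 2.51% and 1.51% in group C against B. Of 6 skeletal muscle markers, 1 was higher and 3 lower in group C against A, and 0 differed in the other comparisons. DESeq2 called 1 of them higher in group C against A. Their sums were 67790 to 92090 normalized FPKM in group B (median 68880) and 53200 to 102000 in group C (median 64780). In group A they were 82050 to 130800 (median 83370). Of 5 immune and 2 erythrocyte markers, 0 differed, and of 5 fibroblast markers 1 was higher, in group C against A. Of 2 skin epithelium genes tested, 1 was lower in group C against A and 1 in group C against B. Of 5 fat markers, 3 were lower in group B against A and 2 higher in group C against B at an unadjusted edgeR p under 0.05, with 1 called lower by DESeq2 in group B against A. Their summed level was 37.0 to 71.0 normalized FPKM in group B, 55.3 to 212.8 in group C and 53.4 to 358.8 in group A. The highest control sum was that of bird A5, with the rest of group A at 53.4 to 88.35. ADIPOQ averaged 36.9 in group B, 46.2 in group C and 41.1 in group A. PLIN1 in group A had a median of 1.86 and a highest level of 45.8. CIDEC was at 0 in at least 1 bird of groups B and A. Of 5 endothelial markers, 3 were higher in group C against A and 1 in group C against B, with 1 called by DESeq2 in group C against A, and they summed to 41.6 to 73.1 in group B, 59.9 to 87.2 in group C and 44.8 to 60.9 in group A. Of 4 smooth muscle markers, 2 were lower in group B against A, 1 was higher and 1 lower in group C against A, and 2 were higher in group C against B. The group C level of CNN1 rested on bird C2, at 190.8 normalized FPKM against 2.30 to 20.6 in the rest of that group. The other 3 markers summed to 13.3 to 23.7 in group B, 16.1 to 39.2 in group C and 24.85 to 65.3 in group A. The part of these cells in the members' differences was not tested.

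**Figure D1:**
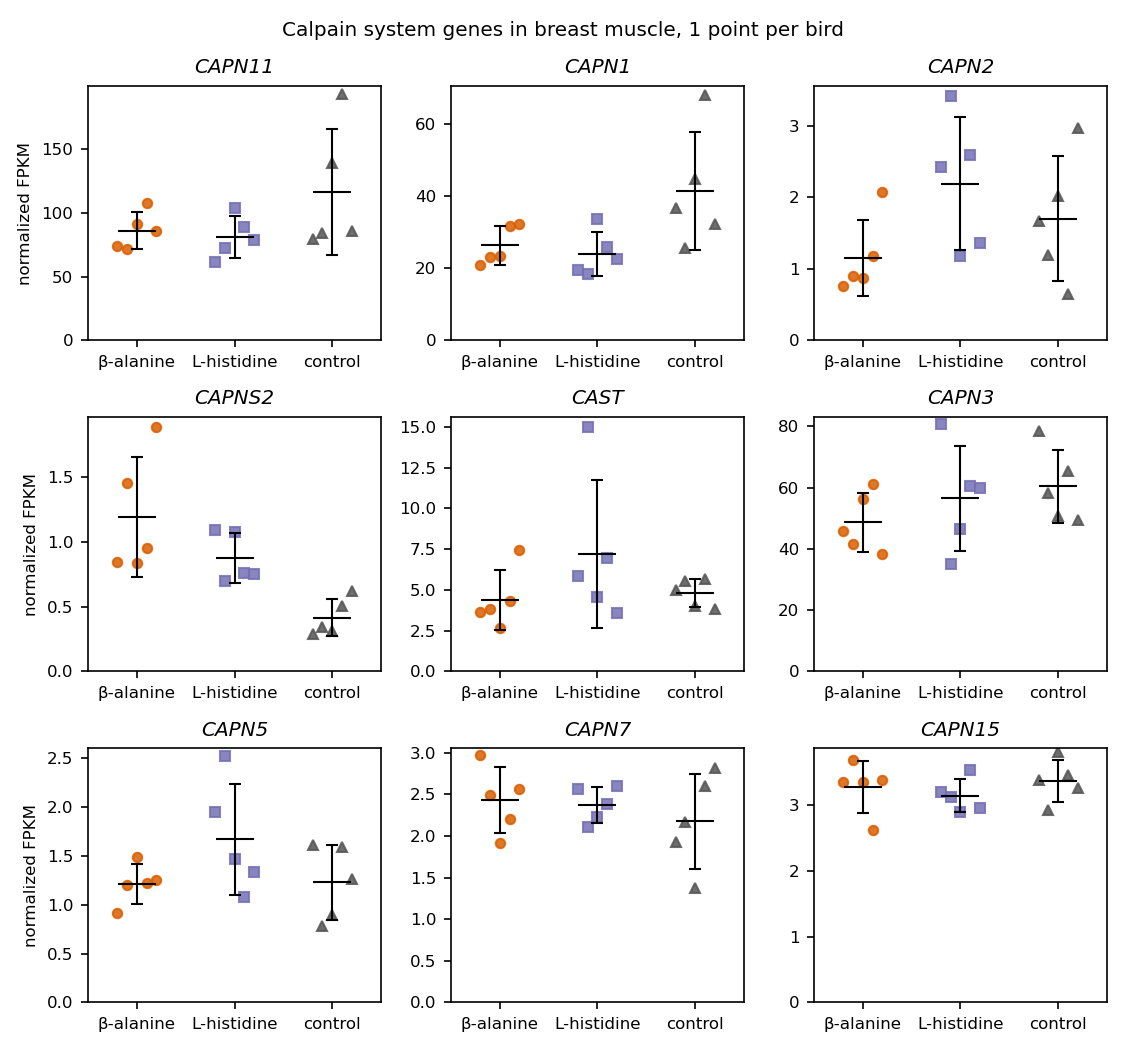
Normalized FPKM (vertical axes, each from 0) of the 9 calpain system genes in the 5 birds fed β-alanine (circles), the 5 birds fed L-histidine (squares) and the 5 control birds (triangles), with the mean (horizontal line) and SD (error bar). All 10 supplemented birds lie above the 5 control birds for CAPNS2, the groups overlap for the other 8 genes, bird A4 is the highest for CAPN1 and CAPN11, and bird C2 is the highest for CAST.

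CAPN11, CAPN3 and CAPN1 made up most of the RNA of the large subunits, with CAPN11 in first place. Per exon length, CAPN11 averaged 86.0 ± 14.6 normalized FPKM in group B, 81.0 ± 16.2 in group C and 116 ± 49.1 in group A (SD, n = 5 each), followed by CAPN3 at 48.7 ± 9.72, 56.5 ± 17.1 and 60.5 ± 12.0 in the same order of groups. CAPN1 came next in every group. Of the summed normalized FPKM of the 7 large subunit genes, CAPN11 took 50.9% in group B, 47.4% in group C and 51.3% in group A. The order of the first 6 genes by mean was the same in the 3 groups, namely CAPN11, CAPN3, CAPN1, CAST, CAPN15 and CAPN7. Neighbours in this order could not always be set apart. The ranges of CAPN11 and CAPN3 overlapped in group C, those of CAPN3 and CAPN1 in group A, those of CAST and CAPN15 and of CAPN15 and CAPN7 in group B, and those of CAPN7 and CAPN2 in groups C and A. CAPN2, CAPN5 and CAPNS2 held the last 3 places in each group, with overlapping ranges in groups B and C, while the CAPNS2 range lay below that of CAPN5 in group A. Among all 17475 genes ranked by mean normalized FPKM, CAPN11 held rank 547 and CAPNS2 rank 9717.

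CAPNS2, the small regulatory subunit in this set, is encoded by a single stretch without introns in the annotation used (GRCg6a, chromosome 11, positions 3663037 to 3664404, minus strand). CAPNS1, the small subunit of most tissues, was not found under that symbol in the deposited table. The normalized FPKM of CAPNS2 in birds B1 to B5 were 0.842, 1.46, 0.837, 0.952 and 1.88. In birds C1 to C5 they were 1.10, 0.698, 1.08, 0.760 and 0.750, and in control birds A1 to A5 they were 0.291, 0.346, 0.314, 0.508 and 0.620. Every bird of groups B and C therefore lay above the highest control bird, A5, with bird C2 closest to it. Groups B and C overlapped.

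The CAPNS2 log2 fold change was 1.52 ± 0.37 (SE) in group B against A, with a 95% interval of 0.73 to 2.30 and an edgeR adjusted p of 0.255 (unadjusted p = 0.000796, higher in 5 of 5 birds). In group C against A it was 1.07 ± 0.37, with an interval of 0.28 to 1.86 and an edgeR adjusted p of 0.180 (unadjusted p = 0.0106, higher in 5 of 5 birds). These are 2.86-fold and 2.10-fold higher levels that missed the threshold after adjustment. With DESeq2, the adjusted p was 0.0577 in group B. In group C the unadjusted DESeq2 p was 0.0134 and no adjusted p was given, so CAPNS2 could not be called there. The paper, which used DESeq2 at the same limits on these birds, listed CAPNS2 as upregulated in group B. The call thus differed from the DESeq2 run here, and the cause was not tested. CAPNS2 was known from that list, so its group B value describes the birds it was chosen on. Its group C value and the order of all birds use the same control birds, so they are not independent of that choice. Among all tested genes, 0.852% had all birds of group B above all control birds, and 0.978% had all birds of group C above them. Groups C and B differed by -0.44 ± 0.35 (log2), with an interval of -1.18 to 0.29.

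These levels rest on few fragments. Birds B1 to B5 had 17, 29, 19, 18 and 41 CAPNS2 fragments, birds C1 to C5 had 26, 17, 20, 16 and 15, and birds A1 to A5 had 5, 7, 5, 5 and 12. Summed over birds these are 124 fragments in group B, 94 in group C and 34 in group A, or 1.64 fragments per 1000000 of the scaled library size (exact 95% Poisson interval 1.36 to 1.95), 1.20 (0.966 to 1.46) and 0.563 (0.390 to 0.787). The intervals cover counting error only, and those of both supplemented groups lie above that of the control group. Counting error alone would give a coefficient of variation of 20.1% between birds of group B, 23.1% in group C and 38.4% in group A, beside observed values of 38.7%, 22.1% and 34.3%. The spread in groups C and A was thus about that of counting, and in group B it was wider.

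CAPNS2 lies inside the span of another gene on the same strand, LPCAT2 (positions 3655774 to 3683716), an acyltransferase of phospholipid metabolism. The sources used here do not say how fragments in overlapping genes were counted, so unspliced LPCAT2 RNA could be counted as CAPNS2. LPCAT2 averaged 2.10 ± 0.52 normalized FPKM in group B, 2.29 ± 0.30 in group C and 1.76 ± 0.34 in group A, and its groups overlapped. For LPCAT2 the log2 fold change was 0.25 ± 0.21 in group B (edgeR adjusted p = 0.650) and 0.38 ± 0.21 in group C (edgeR adjusted p = 0.320), smaller than that of CAPNS2. Per 100 LPCAT2 fragments, the count of CAPNS2 was 20.2 to 30.8 in birds of group B (median 25), 13.8 to 26.3 in group C (median 14.7) and 6.25 to 16.7 in group A (median 9.86). The ranges of groups B and A did not overlap in this ratio, whereas those of groups C and A did. The part of LPCAT2 in the CAPNS2 counts was not tested.

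**Figure D2:**
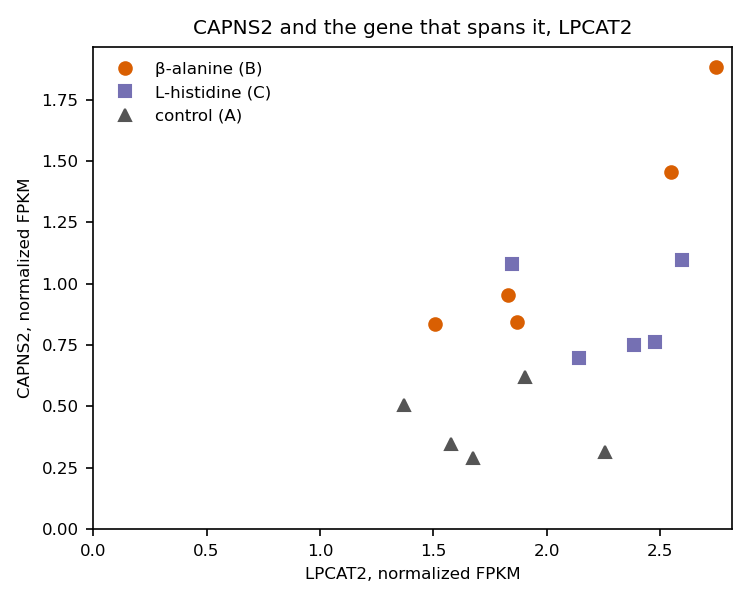
CAPNS2 (vertical axis) against LPCAT2 (horizontal axis), both in normalized FPKM, with 1 point per bird (circles β-alanine, squares L-histidine, triangles control). Control birds reach LPCAT2 levels of 2.26 with CAPNS2 at 0.620 or less, while supplemented birds in the same LPCAT2 range have CAPNS2 at 0.698 or more.

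Among the large subunits, CAPN1, the catalytic subunit of μ-calpain, was lower on average in both supplemented groups, without passing the test. Its levels in birds B1 to B5 were 21.0, 23.0, 23.5, 31.7 and 32.3 normalized FPKM. Birds C1 to C5 had 19.5, 18.4, 33.7, 25.8 and 22.6, and control birds A1 to A5 had 36.7, 25.7, 44.8, 67.9 and 32.2. All 10 supplemented birds were below the control mean of 41.5 and 3 birds of each supplemented group were below the lowest control bird, but the groups overlapped. The log2 fold change was -0.66 ± 0.24 in group B (edgeR adjusted p = 0.431, unadjusted p = 0.0155) and -0.79 ± 0.24 in group C (edgeR adjusted p = 0.170, unadjusted p = 0.00494). DESeq2 gave an adjusted p of 0.0617 in group C and 0.266 in group B.

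Bird A4 carried a good part of the CAPN1 difference. Without it, the log2 fold change of CAPN1 was -0.41 ± 0.21 in group B and -0.54 ± 0.21 in group C. Without both A3 and A4 it was -0.26 ± 0.22 and -0.39 ± 0.21, and with the library total in place of RLE scaling it was -0.39 ± 0.17 and -0.46 ± 0.17. Without that scaling, the median of all genes moved to 0.18 in group B and 0.29 in group C, so that CAPN1 remained below the median gene. The direction was the same under each of these settings, and edgeR adjusted p-values lay between 0.170 and 0.901 over them.

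CAPN11, listed by RefSeq with the synonym μ/m-calpain and the most abundant member here, showed the same order of groups with a smaller difference. Its levels were 73.7, 71.6, 91.4, 107.5 and 85.6 normalized FPKM in birds B1 to B5, 61.5, 72.2, 103.9, 88.9 and 78.7 in birds C1 to C5, and 79.7, 84.2, 138.6, 192.7 and 86.0 in birds A1 to A5. Birds A3 and A4 were the highest 2 of all 15, and the other 3 control birds lay within the range of both supplemented groups. The log2 fold change was -0.43 ± 0.24 in group B (edgeR adjusted p = 0.522) and -0.52 ± 0.24 in group C (edgeR adjusted p = 0.256). Without A3 and A4, it was 0.05 ± 0.19 in group B and -0.04 ± 0.19 in group C, so the CAPN11 difference rested on these 2 control birds.

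CAPN1 and CAPN11 varied together from bird to bird. On log2 levels centred on the group means, Pearson's r was 0.88 (permutation p = 0.00036 over 100000 permutations within groups, adjusted p = 0.0130 over the 36 pairs of members) and Spearman's rho was 0.77 (permutation p = 0.00381, adjusted p = 0.137). Without A3 and A4, the 2 birds farthest from the median, r was 0.80. Within groups, r was 0.70 in group B, 0.92 in group C and 0.91 in group A (5 birds each, given as description). The pair was singled out after the correlations had been seen, and it was the only one of 36 that passed the adjustment by Pearson's r, while 0 passed by Spearman's rho. All levels share the library scaling, which the permutations do not take into account. In group A, birds A4 and A3 had the lowest factors and the highest levels of both genes. In group C, bird C3 had the lowest factor (0.944) and the highest levels of both genes. In group B, bird B4 had the lowest factor (0.941), the highest CAPN11 level and the next to highest CAPN1 level. The part of the scaling in this relation was not tested. This pair was not among the 5 planned for the test. Of those, CAPNS2 had r of 0.30 with CAPN1 and 0.18 with CAPN2. CAST had r of -0.011 with CAPN1, 0.45 with CAPN2 and -0.42 with CAPN3. Their permutation p-values, adjusted over these 5 pairs, lay between 0.443 and 0.967.

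**Figure D3:**
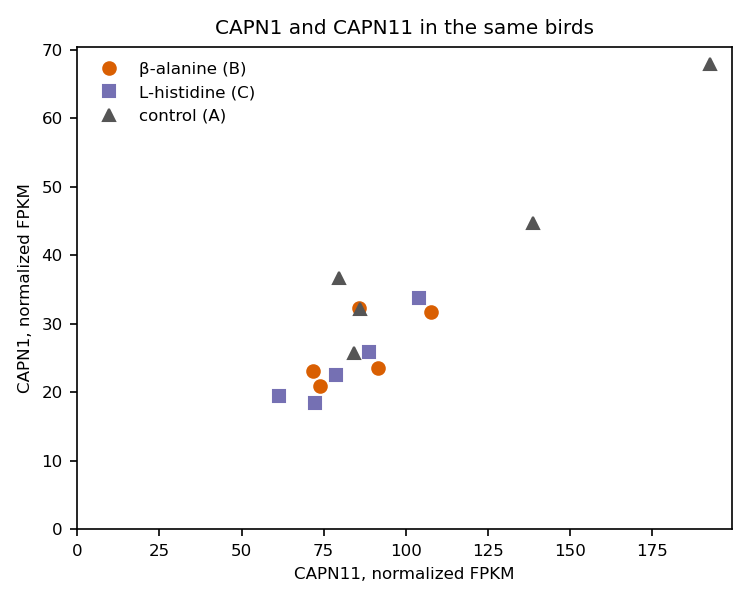
CAPN1 (vertical axis) against CAPN11 (horizontal axis) in normalized FPKM, with 1 point per bird (circles β-alanine, squares L-histidine, triangles control). Birds A3 and A4 lie at the upper right, at 138.6 and 192.7 for CAPN11 and 44.8 and 67.9 for CAPN1, and the other 13 birds lie at 107.5 or less for CAPN11.

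CAPN2, the catalytic subunit of m-calpain, was present at low levels in this muscle. Birds B1 to B5 had 0.759, 0.893, 0.871, 1.18 and 2.07 normalized FPKM, birds C1 to C5 had 2.42, 3.41, 1.17, 2.58 and 1.36, and birds A1 to A5 had 1.67, 1.20, 2.02, 0.652 and 2.96. The control birds spanned nearly the whole range of both supplemented groups. All 5 birds of group C were above the mean of group B (1.15), but only 3 were above its highest bird. In group C against B, the log2 fold change was 0.93 ± 0.39 (unadjusted p = 0.0308, edgeR adjusted p = 0.983). Against the control birds it was -0.57 ± 0.39 in group B and 0.36 ± 0.39 in group C, within the spread of the birds in both cases. Single birds moved these values, to -0.27 without A5 and -0.89 without B5 in group B, and to 0.14 without C2 and 0.65 without A5 in group C. The difference between groups C and B was 0.71 ± 0.40 without bird C2.

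CAST encodes calpastatin, the inhibitor that binds the classical calpains in the presence of calcium. Its levels were 3.62, 3.86, 2.68, 4.31 and 7.47 normalized FPKM in birds B1 to B5, 5.83, 15.0, 4.59, 6.95 and 3.55 in birds C1 to C5, and 5.0, 5.54, 4.03, 5.66 and 3.83 in birds A1 to A5. Bird C2 had the highest value by a wide margin, the next bird of its group being at 6.95, and the other birds of the 3 groups overlapped. The log2 fold change was 0.58 ± 0.34 in group C against A (edgeR adjusted p = 0.345) and 0.71 ± 0.34 in group C against B (edgeR adjusted p = 0.983, unadjusted p = 0.0497). Without bird C2 these were 0.12 ± 0.27 and 0.25 ± 0.27. In group B against A, CAST differed by -0.13 ± 0.34, and by -0.41 without bird B5.

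The high CAST level of bird C2 went with a high level of slow fibre genes in the same bird. Slow fibre markers summed to 5997 normalized FPKM there, and the median of group C was 2.05, beside medians of 2.69 in group B and 3.95 in group A. Bird A3, with the next highest slow fibre sum of 81.4, had a CAST level of 4.03, the next to lowest of the control birds (median 5.0). CNN1, a calponin counted among the smooth muscle markers, was also at 190.8 normalized FPKM in C2, against 1.16 to 20.6 in the other 14 birds. The other 3 smooth muscle markers (ACTA2, MYH11 and TAGLN) summed to 16.1 in C2, the lowest of group C (median 21.5). The part of fibre type or sampling site in the CAST level was not tested.

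**Figure D4:**
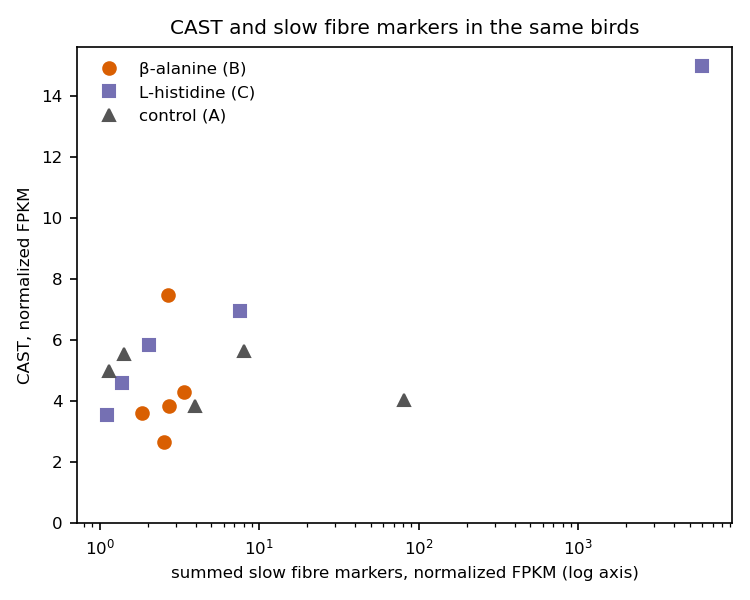
CAST in normalized FPKM (vertical axis) against the summed normalized FPKM of 5 slow fibre markers (horizontal log axis), with 1 point per bird (circles β-alanine, squares L-histidine, triangles control). Bird C2 stands alone at 5997 for the markers and 15.0 for CAST, and the other 14 birds lie at 81.4 or less and 7.47 or less.

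The balance of inhibitor to protease RNA was taken as the ratio of normalized FPKM within each bird, for CAPN1 and CAPN2 only. CAPN11, the most abundant member, was not part of these ratios. CAST to CAPN1 had a median of 0.168 in group B (0.114 to 0.232), 0.269 in group C (0.136 to 0.816) and 0.119 in group A (0.0833 to 0.216). The highest ratio was again that of bird C2, and the groups overlapped. CAST to CAPN2 had medians of 3.67 in group B (3.08 to 4.77), 2.69 in group C (2.41 to 4.39) and 3.0 in group A (1.29 to 8.68), with the widest range among control birds. CAPN1 thus had more RNA per exon length than its inhibitor in every bird, and CAPN2 less in every bird.

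CAPN3 encodes the calpain of skeletal muscle, which binds titin in the sarcomere and whose loss causes a limb-girdle muscular dystrophy in humans. Its levels were 46.0, 41.8, 56.3, 61.1 and 38.2 normalized FPKM in birds B1 to B5, 80.8, 35.1, 46.4, 60.5 and 59.7 in birds C1 to C5, and 78.6, 58.3, 50.9, 65.4 and 49.5 in birds A1 to A5. The groups overlapped, and the lowest value was that of bird C2. The log2 fold change was -0.31 ± 0.22 in group B against A (edgeR adjusted p = 0.596), -0.10 ± 0.22 in group C against A and 0.21 ± 0.22 in group C against B. These were -0.20 without A1, 0.031 without C2 and 0.0501 without C1, in the same order of comparisons. The interval in group C against A ran from -0.56 to 0.36, so a difference as large as the -0.52 of CAPN11 in that comparison lay within it. CAPN3 overlaps ZNF106 at its end, a gene on the opposite strand with 148973 fragments over all birds, and since it is not stated whether counting used the strand, fragments in the shared stretch cannot be told apart. ZNF106 had log2 fold changes of -0.06 ± 0.32 in group B and 0.23 ± 0.32 in group C.

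CAPN5, CAPN7 and CAPN15 lack the penta-EF-hand domain of the classical calpains and are counted among the atypical members of the family. CAPN5, related to the sex determination protease TRA-3 of nematodes, was 0.911 to 1.49 normalized FPKM in group B (median 1.22), 1.08 to 2.52 in group C (median 1.47) and 0.787 to 1.61 in group A (median 1.27). The log2 fold change of CAPN5 was -0.01 ± 0.26 in group B, which lay on either side of 0 depending on the scaling, and 0.45 ± 0.26 in group C (edgeR adjusted p = 0.338). Bird C2 again had the highest level, and without it the group C value was 0.25.

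CAPN7, which binds proteins of the ESCRT machinery of endosomes, was 1.92 to 2.98 normalized FPKM in group B (median 2.49), 2.10 to 2.60 in group C (median 2.38) and 1.38 to 2.82 in group A (median 2.17). Against group A, the log2 fold changes of CAPN7 were 0.16 ± 0.19 in group B and 0.13 ± 0.19 in group C. CAPN15, the relative of the small optic lobes protein of Drosophila, was the steadiest member, at 2.62 to 3.68 normalized FPKM in group B, 2.90 to 3.54 in group C and 2.92 to 3.81 in group A. Its 95% intervals were the narrowest of the 9 genes in the 3 comparisons, -0.32 to 0.24 in group B against A, -0.38 to 0.18 in group C against A and -0.34 to 0.22 in group C against B.

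**Figure D5:**
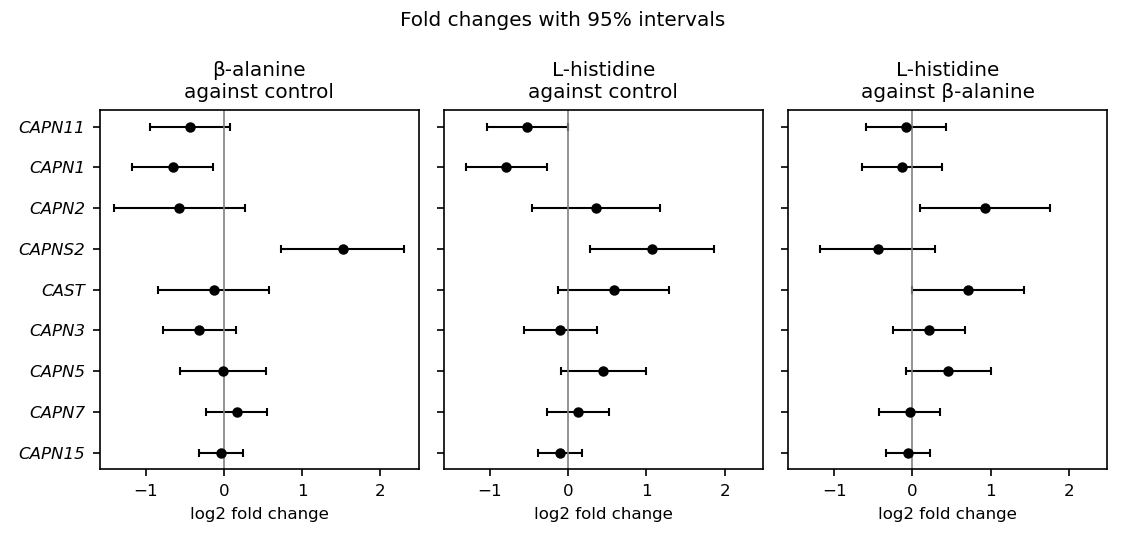
Log2 fold change (horizontal axis, points) with the 95% interval of edgeR's fit (bars) for the 9 genes in group B against A, group C against A and group C against B. The CAPNS2 interval lies above 0 in both supplemented groups against the control and the CAPN1 interval below 0, and the CAPN11 interval just below 0 in group C against A. In group C against B the CAPN2 and CAST intervals lie above 0, and no gene passed after adjustment over all 11858 genes.

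Position on GRCg6a was taken from the deposited table, with chromosome names from the same symbols in a later build. CAPN2 (positions 17779401 to 17799623) and CAPN11 (30442440 to 30454532) lie on chromosome 3, CAPN3 on chromosome 5 (25874264 to 25902572), CAPN5 on chromosome 1 (194696828 to 194747129), CAPN7 on chromosome 2 (41435464 to 41464675) and CAPN15 on chromosome 14 (13803263 to 13851925). CAST lies on the Z chromosome (57223038 to 57284042). CAPN1 spans positions 6580542 to 6595881 of a microchromosome whose name differed between the symbol's own entry and those of its neighbours, so none is given.

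The other calpains measured were at or near 0, or at close levels in the 3 groups. CAPN6, a family member without the catalytic cysteine, averaged 5.03 ± 1.72 normalized FPKM in group B, 4.70 ± 1.67 in group C and 4.55 ± 1.43 in group A, with log2 fold changes of 0.14 ± 0.30 and 0.04 ± 0.30 against group A. CAPN10 averaged 1.70 ± 0.23, 1.55 ± 0.21 and 1.72 ± 0.23 in the same groups. CAPN8 and CAPN9 had 4 fragments each over all 15 birds, CAPN13 had 21 and CAPN14 had 18, and these 4 did not pass the filter for the main edgeR fit. Of 3 other penta-EF-hand genes, 0 passed in any comparison with edgeR or DESeq2, and 0 had an unadjusted p under 0.05. PEF1 had the largest fold changes among them, -0.44 ± 0.32 in group B and -0.61 ± 0.32 in group C, and without A3 and A4 these were 0.29 ± 0.22 and 0.12 ± 0.22. PDCD6, a calcium sensor, averaged 16.8 ± 4.16 normalized FPKM in group B, 14.6 ± 3.18 in group C and 14.1 ± 4.99 in group A. SRI, sorcin, averaged 8.35 ± 1.24, 8.46 ± 2.74 and 9.56 ± 2.5.

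Of 19 measured genes whose proteins are cleaved by calpains in the sarcomere or cytoskeleton, 0 passed the test in any comparison with edgeR or DESeq2. At an unadjusted p under 0.05, 1 was higher and 0 lower in group B against A. In group C against A, 1 was higher and 4 lower, and in group C against B 0 differed. Of all tested genes, 4.47% were higher and 6.17% lower at this limit in group B against A. The shares in group C against A were 7.99% higher and 11.2% lower. In group B against A, 5 of the 19 had a positive log2 fold change, with a median of -0.10, beside -0.02 for all tested genes. In group C against A, 11 of 19 were positive, with a median of 0.03, beside 0.01 for all tested genes. TLN2, a talin that links integrins to actin, was 19.5, 25.2, 23.8, 27.5 and 26.8 normalized FPKM in birds B1 to B5, against 23.5, 15.9, 15.0, 16.7 and 16.0 in birds A1 to A5, with bird A1 alone inside the range of group B. The log2 fold change of TLN2 in group B was 0.50 ± 0.17 (unadjusted p = 0.00977, edgeR adjusted p = 0.425).

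The troponins of fast fibres had negative fold changes in both supplemented groups, without passing the test. These shrank or turned without control birds A3 and A4. TNNT3, fast troponin T, had log2 fold changes of -0.41 ± 0.21 in group B and -0.61 ± 0.21 in group C (edgeR adjusted p = 0.1775), and -0.16 ± 0.20 and -0.37 ± 0.20 without A3 and A4. TNNI2, fast troponin I, had -0.35 ± 0.26 in group B and -0.69 ± 0.26 in group C (edgeR adjusted p = 0.187), and without these birds 0.12 ± 0.20 and -0.22 ± 0.20, so that its direction in group B turned. Bird C2 had the lowest level of both troponins of all birds. Without C2, the group C values were -0.50 ± 0.21 for TNNT3 and -0.56 ± 0.26 for TNNI2. JPH2, which holds the junctions of the T-tubule and the sarcoplasmic reticulum, had -0.39 ± 0.18 in group B (edgeR adjusted p = 0.468) and -0.48 ± 0.18 in group C (edgeR adjusted p = 0.194). TPM1, a tropomyosin of the thin filament and the fourth gene lower at the unadjusted limit in group C, had -0.46 ± 0.19 there. This was -0.33 ± 0.18 without C2 and -0.37 ± 0.21 without A3 and A4. SPTBN1, a spectrin, had 0.38 ± 0.19 in group C (edgeR adjusted p = 0.272), and 0.18 ± 0.18 without A3 and A4.

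MYBPC1, the slow form of myosin-binding protein C, and ANKRD2, an ankyrin repeat protein that binds titin where CAPN3 does, had the largest positive values of the substrate and CAPN3 partner lists in group C against A, and both rested on bird C2. MYBPC1 was 910 normalized FPKM in C2 and 2.35 to 40.2 in the other 4 birds of group C, against 1.03 to 16.4 in group A. The log2 fold change of MYBPC1 was 4.56 ± 1.52 in group C with bird C2 and 0.70 ± 0.97 without it, and 1.71 ± 1.35 in group B. ANKRD2 was 413.8 normalized FPKM in C2 and 0.651 to 2.34 in the others of group C, against 0.299 to 3.97 in group A. For ANKRD2 it was 5.90 ± 1.62 in group C with C2 (edgeR adjusted p = 0.170) and -0.0015 ± 0.60 without it.

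Of 6 measured genes for proteins known to bind CAPN3 or be cut by it, 0 passed in any comparison with edgeR or DESeq2. At an unadjusted p under 0.05, 1, ANKRD2, was higher in group C against A and against B. Of all tested genes, 7.99% and 2.51% were higher at this limit in these comparisons. In group C against A, FLNC, filamin C of the Z-disc, had a log2 fold change of 0.56 ± 0.30 (edgeR adjusted p = 0.316), and 0.32 ± 0.29 without bird C2. The other positive values there were 0.31 ± 0.26 for CMYA5 and 0.55 ± 0.56 for ANKRD1, and the negative ones were -0.18 ± 0.20 for SIMC1 and -0.07 ± 0.21 for DYSF, dysferlin. Without control bird A4 the CMYA5 value was 0.13, and without bird C5 the ANKRD1 value was 0.15. In group B against A the smallest p-values among positive values were those of CMYA5 (0.36 ± 0.26, and 0.18 without A4) and ANKRD1 (0.77 ± 0.57, and 0.22 without B4), and among negative values those of SIMC1 (-0.18 ± 0.20) and DYSF (-0.18 ± 0.21). Without A3 and A4, the CMYA5 value turned to -0.065 in group C and -0.015 in group B. None of these genes passed the test.

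Of 9 measured genes of membrane repair, in which calpains also act, 0 passed in any comparison with edgeR or DESeq2. At an unadjusted p under 0.05, 1 was lower in group B against A, 0 differed in group C against A, and 2 were higher in group C against B. These 2 were ANXA2, an annexin (log2 fold change 0.77 ± 0.27, unadjusted p = 0.0107), and MYOF, myoferlin (0.62 ± 0.27, unadjusted p = 0.0372), both with an edgeR adjusted p of 0.983. In group B against A, 0 of the 9 had a positive log2 fold change, with a median of -0.42, beside -0.02 for all tested genes. In group C against A, 3 of 9 were positive, with a median of -0.07, beside 0.01 for all tested genes. As given above, 6.17% of all tested genes were lower in group B against A at the unadjusted limit, and 2.51% were higher in group C against B. S100A11, which works with annexins at injured membranes, had the smallest p in group B, with 15.2 ± 4.08 normalized FPKM in group B and 24.5 ± 10.1 in group A (log2 fold change -0.69 ± 0.28, edgeR adjusted p = 0.445) and -0.33 ± 0.28 in group C. ANXA6 followed with -0.38 ± 0.20 in group B (edgeR adjusted p = 0.495). Without A3 and A4, S100A11 in group B was -0.44 ± 0.32 and ANXA6 -0.15 ± 0.20, while MYOF moved from -0.14 to -0.46. With the library total in place of RLE scaling, MYOF and DYSF in group B were 0.0033 and 0.033, beside a median of 0.18 for all genes. Against group A, group C differed by 0.48 ± 0.27 in MYOF (0.32 without A4, and 0.16 without A3 and A4) and 0.30 ± 0.27 in ANXA2 (0.17 without C2 and 0.18 without A4). CAV3, caveolin of muscle, had -0.49 ± 0.27 (edgeR adjusted p = 0.319).

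The genes whose log2 levels were most like those of CAPNS2, CAPN3 and CAST over the 15 birds are given as description, since all levels share the library scaling. For CAPNS2 they were BMP4 (r = 0.79), TNFSF10 (r = 0.78) and NUFIP1 (r = 0.78), and after centring on the group means r was 0.46, 0.59 and 0.45, so much of the likeness lay in the difference between groups. For CAPN3 they were EIF4G2 (r = 0.78), IREB2 (r = 0.77) and CHMP5 (r = 0.76), and centring left r at 0.82, 0.80 and 0.82. For CAST they were NDST2 (r = 0.87), MYH1F (r = 0.82) and WFDC1 (r = 0.80), with r of 0.73, 0.51 and 0.54 without bird C2.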

How the data were processed

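Per the labels, 15 breast muscle samples in 3 diet groups were sequenced. Per the submitters' notes, cutadapt 1.9.1 was used for trimming, HISAT2 2.0.1 for alignment to GRCg6a and HTSeq 0.6.1 for counting, and a whole-number count for each gene and bird was deposited. FPKM in the same table were derived by the authors from count, exonic length and library total. How strand, overlapping genes and multiply mapped reads were treated was not stated. Of the 17475 genes, 11858 passed a mean deposited FPKM of 0.2.

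RLE scaling and the quasi-likelihood fit of 15 birds without covariates were done in edgeR 4.0.16 (R 4.3.3), with Benjamini-Hochberg adjustment over the genes tested. DESeq2 1.42.0 was run on 15897 genes with at least 1 count. SE and 95% intervals derive from the F statistic. Birds are separate animals, and same-numbered birds were not paired in the labels. The fit was run on simulated counts with planted fold changes, as a check of the code. These counts held no deviating birds such as A3, A4 and C2. The run therefore does not show how such birds affect the calls. The members, gene lists and tests were chosen with earlier results of these data known. Genes of the lists are named where they had the 2 smallest p-values in a direction against the control, and genes alike to CAPNS2, CAPN3 and CAST by the 3 highest Pearson's r. Other scalings, filters, models and left-out birds were tried. The authors' qPCR was not analysed here.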

Additional observations from a re-analysis of the deposited data

How the results depend on the processing

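Of 648 alternative values of the members' log2 fold changes, 623 kept the direction and 25 reversed it, in 10 of 27 results, and no member was called under any alternative run. For all genes, DESeq2 called 58 genes in group B and 225 in group C, and a fit of groups C and A alone called 1 gene, beside 0 in the edgeR fit of all 15 birds. Leaving out 1 bird gave 0 to 1 called genes in group B and 0 to 2 in group C. With the library total in place of RLE scaling, the log2 fold change turned to 0.21 for CAPN5, 0.18 for CAPN15 and 0.079 for CAST in group B, to 0.20 for both CAPN3 and CAPN15 in group C, and to 0.0499 for CAPN7 and 0.0223 for CAPN15 in group C against B. CAPN5 in group B was 0.0019 with TMM scaling, and without control birds A3 and A4 it was 0.00034, CAPN11 0.051 and CAPN15 0.0449, a setting chosen after seeing the data. Leaving out 1 bird moved CAPNS2 over 1.29 to 1.73 in group B, CAPN5 over -0.14 to 0.11, CAPN15 over -0.0851 to 0.0305 and CAST over -0.41 to 0.0024, in group C CAPN3 over -0.26 to 0.031 and CAPN7 over -0.0010 to 0.24, and in group C against B CAPN7 over -0.11 to 0.0478 and CAPN11 over -0.19 to 0.0086. Without the 2 birds farthest from the median, r of CAPNS2 with CAPN2 was -0.0089, beside 0.18 over all 15 birds. In the same way, r of CAST with CAPN1 was 0.18, beside -0.011 over all birds. The causes were not tested. CAPNS2 is limited by depth, with as few as 5 fragments in a bird.

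With bird number as a replicate block, the log2 fold change of CAPNS2 was 1.51 in group B, that of CAPN5 turned to 0.00211, and 0 genes were called. Correlations of same-numbered birds exceeded 0.1 in 5 of 15 pairs, and birds matched best with their own number in 8 of 30 comparisons. No chance level was set beside these counts, so they cannot decide on pairing. The numbers were not taken as pairs because the labels give none.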
